A study of Mus musculus with 4 samples.

Results

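The collagen gene family was taken as every gene symbol made of Col, a type number, the letter a and a chain number, with nothing after it. This rule found 44 of the 32285 genes in the count matrices, and 43 of them had at least 1 UMI (a counted transcript molecule) in a cell that passed quality filtering. The study isolated the stromal vascular fraction, the cells left once the fat cells are removed, from mouse brown adipose tissue and profiled it by droplet single-cell RNA sequencing of transcript 3′ ends. The 4 groups held 1 library each, and the study's legends give each as cells pooled from 3 mice. They were WT, labelled as 10 weeks of age, db/db 8w and db/db 16w at 8 and 16 weeks, and HFD. The db/db mice carry a leptin receptor mutation in the whole animal and become obese on ordinary feed, and the labels give C57BL6/J for all 4 groups where the methods name the db/db strain as B6.BKS(D)-Leprdb/J. The HFD mice were fed a high-fat diet. The HFD label gives 10 weeks, whereas the methods start the diet at 10 weeks of age, so the age of these mice was not settled. Nor was that of WT, since legends of the study speak of WT mice of 8 and 16 weeks. With 1 library per group there was no replicate spread and no test, and all intervals below are 95% intervals that cover counting error only.

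Collagens are triple helices of 3 chains, each chain the product of its own gene. Fibrillar collagens (types I, II, III, V, XI, XXIV and XXVII) form the cables of connective tissue, type IV forms the sheet of basement membranes, type VI forms beaded filaments around cells, and the FACIT types sit on the surface of fibrils. In adipose tissue the fibroblast-like stromal cells, among them the precursors of fat cells, are the main collagen source, and each fat cell is wrapped in a basement membrane.

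After quality filtering 5944 cells remained for WT, 11648 for db/db 8w, 5833 for db/db 16w and 5462 for HFD, or 31.3% to 89.5% of barcodes, with median depths of 2733 to 6219 UMIs per cell. The libraries shared 16 to 97 barcode sequences per pair, at most 0.629% of either library. The study describes its mice as male, but the db/db 16w library held the X-inactivation transcript Xist at 207 CPM (UMIs of a gene per 1000000 UMIs) and Y-linked genes at 17.7 CPM, against 0.187 to 0.688 CPM and 164 to 188 CPM in the others. This library therefore differed from WT in sex-linked expression as well as in genotype and, by the labels, in age. These cannot be told apart in its comparisons with WT. Cells were assigned to lineages with marker genes that include no collagen. The stromal gate (Dcn, Pdgfra, Lum, Dpt, Serpinf1, Mmp2) held 4272 cells for WT, 5675 for db/db 8w, 1115 for db/db 16w and 1501 for HFD. The endothelial gate held 12, 74, 1208 and 878 cells in that order, and the macrophage gate 1227, 3098, 2414 and 1610. Within the stromal gate its marker list summed to 12656 to 17799 CPM, against at most 251 CPM for the macrophage list and at most 162 CPM for the endothelial list.

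Collagen transcripts took a larger part of the stromal transcriptome in every library of obese mice than in WT. They were 3.23% of stromal UMIs in WT, 5.01% for db/db 8w, 6.43% for db/db 16w and 5.27% for HFD. Relative to WT this was 1.55-fold, 1.99-fold and 1.63-fold. The increase was uneven over the structural classes. Fibrillar chains were 1.42-fold, 1.69-fold and 1.46-fold the WT level in the 8w and 16w db/db libraries and HFD, and their share of all collagen UMIs was 87.0% in WT and 79.5%, 73.9% and 77.6% in those libraries. Type IV chains had log2 ratios to WT of 1.58, 2.10 and 1.98 in that order, and type VI chains of 1.48, 2.45 and 1.58. The multiplexins, types XV and XVIII, which are proteoglycan collagens of basement membrane zones, stood at 7.08-fold, 16.2-fold and 11.6-fold the WT level. The FACIT class went the other way, at 0.920-fold, 0.315-fold and 0.477-fold the WT level.

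**Figure D1:**
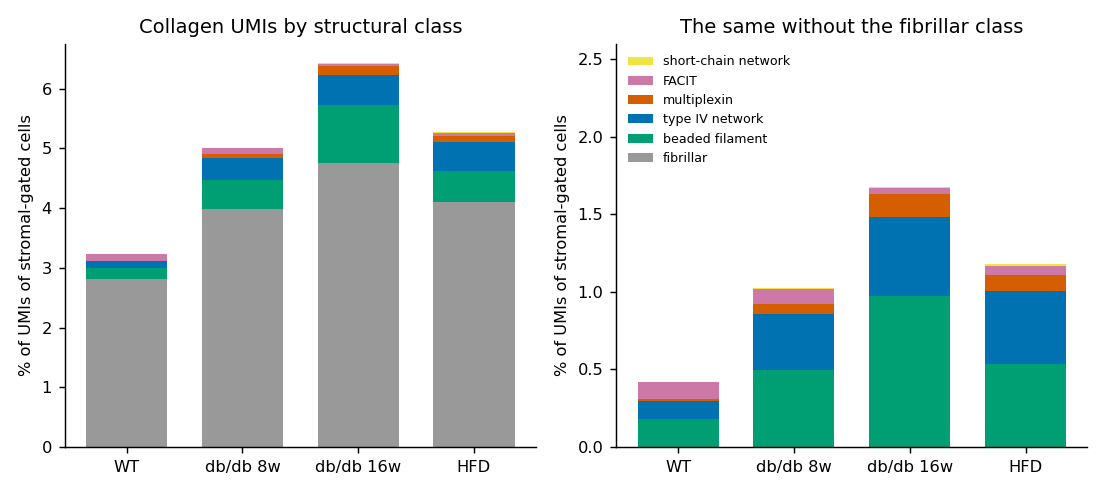
Collagen UMIs as a percentage of all UMIs of stromal-gated cells in the 4 libraries, stacked by structural class, with all classes on the left and without the fibrillar class on the right. The total was 3.23% in WT and 5.01% to 6.43% in the libraries of obese mice, and the part outside the fibrillar class differed most.

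Of the 44 members, 24 reached 20 CPM in the stromal, endothelial or macrophage gate of a library with at least 50 such cells, and these are described one by one. The other 20 members held 0 to 386 UMIs over all cells of the 4 libraries and at most 5.41 CPM in stromal cells. Among them were the cartilage chains Col2a1, Col9a1 to Col9a3, Col10a1 and Col11a1, the epithelial anchoring collagen Col7a1 and the hemidesmosome component Col17a1. In each comparison with WT, 23 members had at least 10 CPM in stromal cells of either library. Col6a5, Col8a1 and Col27a1 were below 10 CPM in WT, so they entered only through their level in the libraries of obese mice. Col4a3 and Col4a4 were below it in db/db 16w and entered that comparison only through WT. Called here means a change of at least 2-fold in CPM after 10 CPM was added to both levels. In db/db 8w 11 of the 23 were higher and 0 lower, where 2.14% of all genes were higher and 1.25% lower. In db/db 16w 13 were higher and 4 lower, against 7.42% and 8.04% of all genes. In HFD 11 were higher and 2 lower, against 5.75% and 4.26% of all genes. Those counted as higher include Col8a1 and Col27a1 in all 3 comparisons and Col6a5 in db/db 8w, which were under the limit in WT. The median log2 ratio of the tested members was 0.997, 1.08 and 0.91 in the 8w and 16w db/db libraries and HFD, while the median over all genes was 0.02, -0.02 and 0.05. The 3 comparisons share the WT library, so they are not independent of each other.

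**Figure D2:**
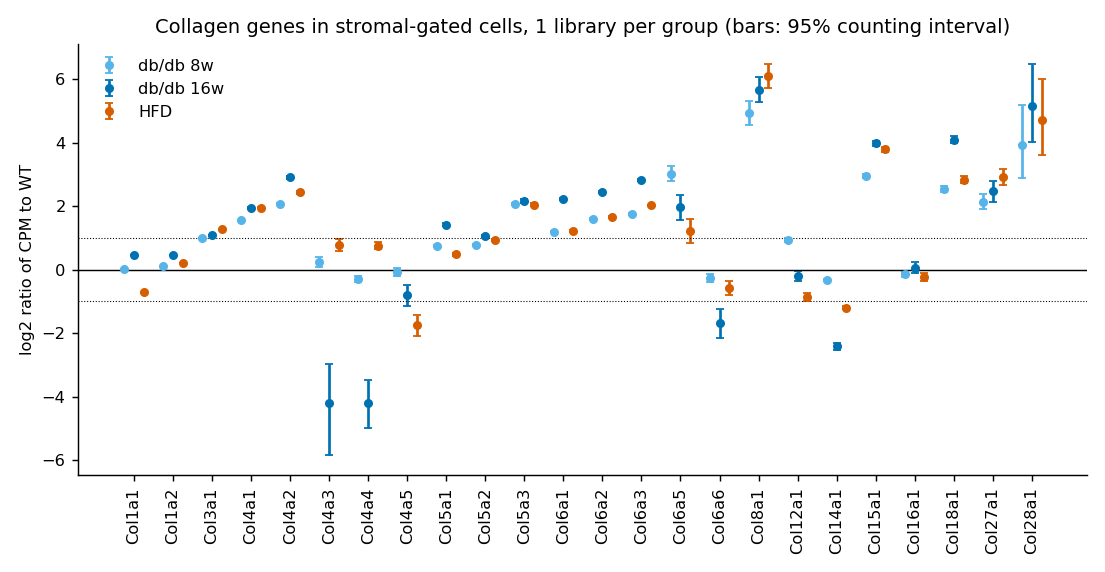
Log2 ratio of CPM to WT in stromal-gated cells for the 24 described members in the 8w and 16w db/db libraries and HFD, with 95% counting intervals as bars and dotted lines at 2-fold. Col8a1 lay highest in all 3 libraries among the members called, and Col4a3 and Col4a4 lay far below 0 in db/db 16w alone.

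In the whole stromal gate the fibrillar chains of type I, the most abundant protein of connective tissue, stayed within 2-fold of WT. Col1a2, its second chain, stood at 8886 CPM for WT, 9657 for db/db 8w, 12219 for db/db 16w and 10278 for HFD. Col1a1, the chain present in 2 copies per molecule, stood at 8402, 8430, 11560 and 5127 CPM in that order. It was thus 1.38-fold the WT level for db/db 16w and 0.610-fold for HFD, and neither passed 2-fold. Col3a1, the single chain of type III collagen, which accompanies type I in soft and elastic tissue, stood at 9294 CPM for WT, 18556 for db/db 8w, 19641 for db/db 16w and 22355 for HFD. All 3 libraries of obese mice lay above WT, and db/db 8w lay just under 2-fold, at a log2 ratio of 0.997. Type V chains are built into type I fibrils and set their width. Col5a1 stood at 539, 910, 1440 and 755 CPM and Col5a2 at 780, 1346, 1625 and 1480 CPM in WT, the 8w and 16w db/db libraries and HFD. Col5a3, the least studied of these chains, differed most, at 219 CPM in WT and 905 to 983 CPM in the other libraries. Col27a1, a minor fibrillar chain, stood at 5.46 CPM in WT and 24.1, 30.3 and 41.2 CPM in the 8w and 16w db/db libraries and HFD.

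The ratio of 1 chain to another within a library does not depend on the library's total, although counts of 3′ ends need not capture different transcripts equally. The Col1a1 to Col1a2 ratio was 0.946 for WT, 0.873 for db/db 8w and 0.946 for db/db 16w, but 0.499 for HFD, with an interval of 0.493 to 0.505. The HFD ratio was also low within the preadipocyte subset, at 0.475, and within the Pi16 Dpp4 subset, at 0.571, where WT had 0.982 and 0.897. The Col5a1 to Col5a2 ratio was likewise lowest in HFD, at 0.510 against 0.676 to 0.886 elsewhere. Col3a1 exceeded Col1a1 1.11-fold in WT, 2.20-fold for db/db 8w, 1.70-fold for db/db 16w and 4.36-fold for HFD. The Col4a1 to Col4a2 ratio was 2.99 in WT and 2.10, 1.55 and 2.15 in the 8w and 16w db/db libraries and HFD, and the Col6a1 to Col6a2 ratio was 1.59, 1.20, 1.37 and 1.19.

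**Figure D3:**
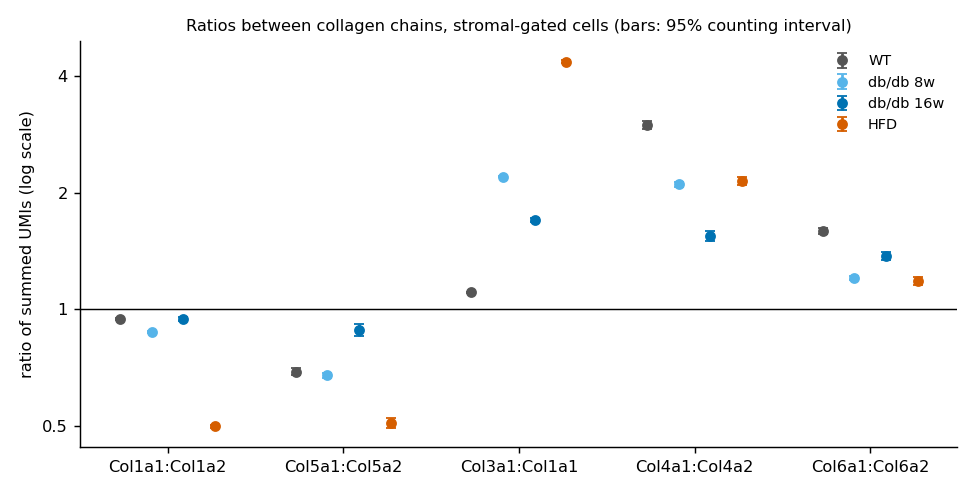
Ratios of summed UMIs between pairs of collagen chains in stromal-gated cells of each library, on a log scale, with 95% counting intervals as bars. Col1a1:Col1a2 was 0.499 in HFD and 0.873 to 0.946 in the other libraries, and Col3a1:Col1a1 was highest in HFD at 4.36.

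The type VI chains, which assemble 1 to 1 to 1 as Col6a1, Col6a2 and Col6a3, were higher in all 3 libraries of obese mice and highest in db/db 16w. Col6a3, the chain whose cleaved end is endotrophin, stood at 497 CPM for WT, 1677 for db/db 8w, 3496 for db/db 16w and 2014 for HFD. Col6a1 stood at 764, 1751, 3577 and 1784 CPM and Col6a2 at 480, 1454, 2608 and 1503 CPM in that order. The 2 genes lie 85161 bases apart on the same strand of chromosome 10. The chains that can replace Col6a3 were far rarer. Col6a5 stood at 5.06 CPM in WT and 41.2, 19.9 and 11.8 CPM in the 8w and 16w db/db libraries and HFD, while Col6a6 was 35.0 CPM in WT and 29.1, 10.9 and 23.7 CPM. Col6a5 and Col6a6 are neighbours on chromosome 9, 27917 bases apart on the same strand, and moved in opposite directions in db/db 16w.

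Type IV collagen has 6 chains, whose genes lie as 3 pairs that start back to back. The ubiquitous pair is Col4a1 and Col4a2, which together make the common basement membrane sheet. Col4a3, Col4a4 and Col4a5 make the specialised sheet of the kidney filter and a few other sites. On GRCm38, as GENCODE gives it, Col4a1 (ENSMUSG00000031502) lies at chr8:11198423-11312826 on the minus strand and Col4a2 (ENSMUSG00000031503) at chr8:11312805-11449287 on the plus strand. Col4a4 (ENSMUSG00000067158) lies at chr1:82448423-82586849 on the minus strand and Col4a3 (ENSMUSG00000079465) at chr1:82586921-82722059 on the plus strand. The promoter windows of Col4a1, Col4a2 and Col4a4 are shown because Col4a1 and Col4a2 were higher in all 3 libraries of obese mice and Col4a3 and Col4a4 were both low in db/db 16w. Each window runs from 250 bases before the start of the RefSeq transcript to 50 bases after it, on GRCm38.p6, and capitals mark a CCAAT box on either strand.
Col4a1, chr8:11312777-11313076, minus strand: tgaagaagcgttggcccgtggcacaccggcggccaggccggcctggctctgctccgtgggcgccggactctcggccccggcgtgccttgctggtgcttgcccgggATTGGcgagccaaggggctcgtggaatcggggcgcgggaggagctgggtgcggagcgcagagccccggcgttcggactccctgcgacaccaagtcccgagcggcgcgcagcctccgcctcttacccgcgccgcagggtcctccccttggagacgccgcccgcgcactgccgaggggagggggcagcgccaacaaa
Col4a2, chr8:11312555-11312854, plus strand: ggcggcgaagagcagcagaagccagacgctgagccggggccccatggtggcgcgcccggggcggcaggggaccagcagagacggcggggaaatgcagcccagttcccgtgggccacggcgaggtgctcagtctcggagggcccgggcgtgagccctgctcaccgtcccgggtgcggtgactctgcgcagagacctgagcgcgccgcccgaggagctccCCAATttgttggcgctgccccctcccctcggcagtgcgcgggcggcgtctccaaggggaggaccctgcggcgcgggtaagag
Col4a4, chr1:82586800-82587099, minus strand: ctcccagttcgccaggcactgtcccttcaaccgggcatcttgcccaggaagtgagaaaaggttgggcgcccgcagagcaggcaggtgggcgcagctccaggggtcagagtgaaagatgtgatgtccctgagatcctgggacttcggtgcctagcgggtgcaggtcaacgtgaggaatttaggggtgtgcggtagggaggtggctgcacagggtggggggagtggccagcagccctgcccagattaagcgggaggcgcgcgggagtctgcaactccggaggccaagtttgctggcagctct
The start sites of Col4a1 and Col4a2 lay 21 bases apart in the annotation, and their windows shared the 78 bases of chr8:11312777-11312854, read on opposite strands. Col4a3 and Col4a4 started 72 bases apart on chromosome 1, also in opposite directions. A window was found for 35 of the 44 members. The CCAAT box (CCAAT on either strand) was in windows of 13 of the 35, or 37.1%, and of 41.1% of all genes in the RefSeq table. The GC box (GGGCGG on either strand) was in 22 of the 35, or 62.9%, and in 38.2% of all genes, and the TATA box (TATAAA on either strand) in 5 of the 35 and 15.7% of all genes. These are matches of letters and say nothing of binding.

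Both genes of the ubiquitous pair were higher in every library of obese mice. Col4a1 stood at 806 CPM for WT, 2362 for db/db 8w, 3112 for db/db 16w and 3114 for HFD, and Col4a2 at 269, 1124, 2012 and 1451 CPM. The other back-to-back pair behaved differently. Col4a3 stood at 22.4 CPM in WT, 26.6 for db/db 8w and 38.5 for HFD, but at 1.21 CPM in db/db 16w, where 5 UMIs were counted in 1115 cells. Col4a4 stood at 70.5, 57.1 and 118 CPM in WT, db/db 8w and HFD and at 3.88 CPM, or 16 UMIs, in db/db 16w. Their log2 ratios to WT in db/db 16w were -4.21 (interval -5.84 to -2.98) and -4.19 (-4.99 to -3.48). The interval of Col4a3 in db/db 16w ended at 2.83 CPM, below the 20.9 CPM at which that of WT began. The ratio of Col4a3 to Col4a4 was 0.318, 0.466, 0.313 and 0.325 in WT, the 8w and 16w db/db libraries and HFD, so both genes were low together in db/db 16w. Col4a5, on the X chromosome, stood at 34.1 CPM in WT, 32.4 for db/db 8w, 19.4 for db/db 16w and 10.1 for HFD, which made HFD its lowest library.

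The 2 multiplexins were among the members with the widest range. Col15a1, which anchors basement membranes to nearby fibrils, lies at chr4:47208161-47313167 on the plus strand (ENSMUSG00000028339) and stood at 60.3 CPM for WT, 465 for db/db 8w, 953 for db/db 16w and 833 for HFD. Col18a1, the basement membrane collagen that releases endostatin, lies at chr10:77052178-77166548 on the minus strand (ENSMUSG00000001435) and stood at 30.3, 177, 517 and 216 CPM. After each stromal cell was thinned to 1000 UMIs to equalise depth, which left out 90, 749, 97 and 1 cells, a Col15a1 UMI was found in 4.83% of WT cells and in 26.1%, 48.5% and 47.9% of those of the 8w and 16w db/db libraries and HFD. The shares without thinning were 15.3%, 46.2%, 72.3% and 80.2%. Macrophage-gated cells, thinned alike, had a Col15a1 UMI in 0.247%, 1.03%, 0.0860% and 0.497% of cells. Col18a1 UMIs were found in 2.51%, 12.1%, 36.5% and 15.5% of the thinned stromal cells.

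Col8a1, a short network-forming chain best known from blood vessel walls and the membrane beneath the corneal endothelium, showed the largest fold difference among the members called. It lies at chr16:57624258-57754737 on the minus strand (ENSMUSG00000068196). It stood at 1.87 CPM in WT, from 65 UMIs, and at 56.4 for db/db 8w, 94.7 for db/db 16w and 126 for HFD. It thus reached the limit of 10 CPM only in the libraries of obese mice. The log2 ratios to WT were 4.91, 5.66 and 6.08, and the lower bounds were 4.56, 5.28 and 5.72. The gene was found in few cells. After thinning, 0.167% of WT stromal cells and 3.51%, 6.58% and 8.47% of those of the 8w and 16w db/db libraries and HFD held a UMI. Col28a1, a chain described in peripheral nerve, was below 10 CPM in stromal cells of all 4 libraries, with 0.230 CPM in WT and 3.49, 8.24 and 6.02 CPM in the others.

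The FACIT chains did not share the direction of the rest. Col14a1, which coats type I fibrils in tendon and skin, stood at 922 CPM for WT, 737 for db/db 8w, 173 for db/db 16w and 403 for HFD. Col12a1, its relative in load-bearing tissue, stood at 114, 218, 99.6 and 63.0 CPM, so only db/db 8w lay above WT. Col16a1 stood at 72.9, 65.7, 76.3 and 62.2 CPM, the narrowest range of the 24 described members relative to its level. With the makeup of the stromal subsets described next held at that of WT, the log2 ratio of this class turned to 0.37 for db/db 8w and 0.27 for HFD and stayed below WT for db/db 16w, at -0.76. That of Col14a1 was 0.18 for db/db 8w, -1.40 for db/db 16w and 0.23 for HFD. For db/db 16w the weighting used only the preadipocyte subset and the cells of no clear subset. It left out the Pi16 Dpp4 subset, which was 74.7% of stromal cells in WT and held more Col14a1 there than the preadipocyte subset. The db/db 16w values are thus not for the full makeup of WT.

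The stromal gate mixes cell states, and the libraries held them in different numbers. The Pi16 Dpp4 subset, gated on Pi16, Dpp4, Sema3c, Cd55, Anxa3 and Efhd1, markers of early interstitial progenitors, was 74.7% of stromal cells in WT, 36.0% for db/db 8w, 2.87% for db/db 16w and 15.5% for HFD. The preadipocyte subset, gated on Pparg, Hsd11b1, Sparcl1, Cxcl14, Icam1 and Smoc2, was 7.63%, 26.4%, 59.6% and 61.6%. These shares depend on how cells were set free and gated, and the db/db 16w Pi16 Dpp4 subset, with 32 cells, was too small for levels. Collagens were 5.91% of UMIs in the WT preadipocyte subset and 2.63% in the WT Pi16 Dpp4 subset. The preadipocyte subset, compared within WT, within db/db 8w and within HFD, held more of both type IV pairs and of the multiplexins. In WT Col4a1 stood at 3178 CPM in the preadipocyte subset and 437 in the Pi16 Dpp4 subset, Col4a3 at 105 and 8.45, and Col15a1 at 354 and 13.9. The order was the same for these 3 genes in db/db 8w and HFD. Col14a1 had the reverse order, with 267 CPM in the preadipocyte subset and 1040 in the Pi16 Dpp4 subset of WT, 285 and 1195 in db/db 8w, and 217 and 1288 in HFD. Col12a1 had that order too, with 46.2 and 126 CPM in WT.

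Within the preadipocyte subset the difference between the libraries was small for the family as a whole and stayed for some members. In that subset collagens were 5.91% of UMIs in WT, 6.23% for db/db 8w, 6.40% for db/db 16w and 5.33% for HFD, and in the Pi16 Dpp4 subset 2.63%, 3.56% and 3.71% for WT, for db/db 8w and for HFD. Log2 ratios to WT were 0.07, 0.11 and -0.15 in the preadipocyte subset of the 8w and 16w db/db libraries and HFD, and 0.44 and 0.49 in the Pi16 Dpp4 subset of db/db 8w and HFD. With the makeup of stromal subsets held at that of WT, the log2 ratios of the family were 0.34 for db/db 8w, 0.24 for db/db 16w and 0.36 for HFD, against 0.63, 0.99 and 0.71 without it. For db/db 16w this weighting used only the preadipocyte subset and the cells of no clear subset, since the others held fewer than 50 cells. The preadipocyte marker list itself summed to 1925 CPM in that subset of WT and to 3367, 4016 and 4238 CPM in the 8w and 16w db/db libraries and HFD, so the cells gated alike were not alike in their markers, and the part of this in the levels was not tested.

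Within the preadipocyte subset, Col8a1, Col18a1 and Col15a1 were still more than 2-fold above WT in all 3 libraries. Col8a1, from a low WT level of 2.95 CPM in 326 cells, had log2 ratios of 3.42, 5.16 and 5.48 in the 8w and 16w db/db libraries and HFD. Col18a1 had log2 ratios of 1.65, 2.47 and 1.24, and Col15a1 of 1.31, 1.54 and 1.41. Col6a1, Col6a2 and Col6a3 were at 0.93, 1.31 and 1.02 in db/db 8w, at 1.54, 1.67 and 1.37 in db/db 16w and at 0.58, 0.93 and 0.66 in HFD. Col4a1 was close to WT, at 0.41, 0.09 and 0.17, and Col3a1 at 0.30, 0.05 and 0.25. Col4a2 stood at 1231 CPM for WT, 2083 for db/db 8w, 2173 for db/db 16w and 1686 for HFD in this subset. Col1a1 lay below WT in all 3 libraries, at -0.68, -0.37 and -1.57, from 14079 CPM in WT to 8776, 10900 and 4741 CPM. Col4a4 stood at 232 CPM for WT, 108 for db/db 8w, 4.08 for db/db 16w and 154 for HFD. Col4a3 stood at 105, 54.5, 0.743 and 53.2 CPM, the db/db 16w value resting on 2 UMIs in 664 cells. In the Pi16 Dpp4 subset Col8a1 stood at 1.35 CPM in WT, 67.8 for db/db 8w and 66.9 for HFD, and Col15a1 at 13.9, 94.1 and 217 CPM, so both were higher in that subset as well. Col4a1 and Col3a1 were also higher there, Col4a1 at 437 CPM in WT, 741 for db/db 8w and 1281 for HFD, and Col3a1 at 7281, 13507 and 16147 CPM.

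**Figure D4:**
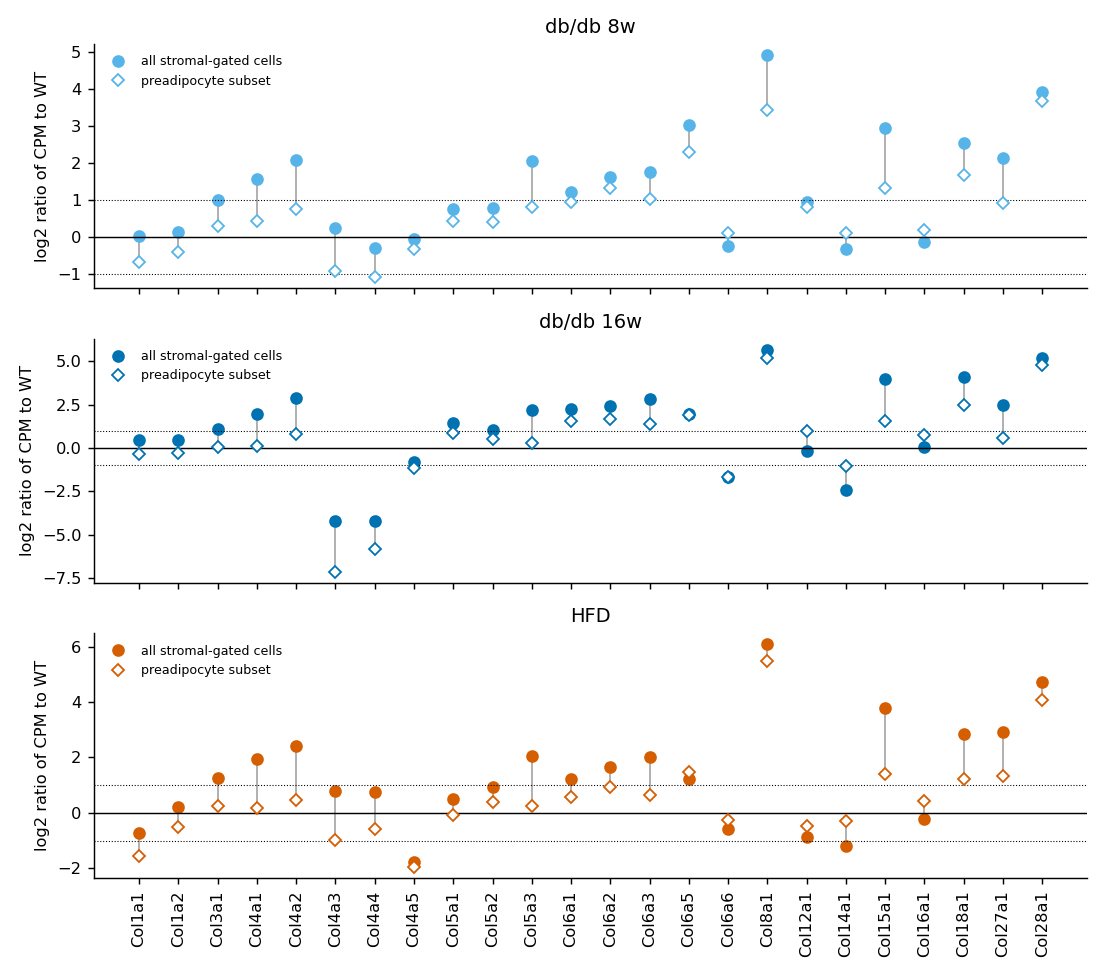
Log2 ratio of CPM to WT for the 24 described members, in all stromal-gated cells (filled circles) and within the preadipocyte subset (open diamonds), 1 panel per library of obese mice with dotted lines at 2-fold. The diamonds of Col4a1 and Col3a1 lie near 0, while those of Col8a1, Col18a1 and Col15a1 stay above the upper dotted line.

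In the whole stromal gate the genes that modify, export, cut, crosslink and sense collagen had smaller median differences than the members. The subset makeup of that gate differed between the libraries, and its part in the levels of these genes was not tested. Of 40 such genes listed, 39 were matched by symbol, and 32, 32 and 33 had at least 10 CPM in the comparisons of the 8w and 16w db/db libraries and HFD with WT. In db/db 8w 2 were at least 2-fold higher and 2 lower, where 2.14% of all genes were higher and 1.25% lower. In db/db 16w 4 were higher and 5 lower, against 7.42% and 8.04% of all genes, and in HFD 7 and 4, against 5.75% and 4.26%. With 1 CPM added in place of 10, those higher numbered 7, 7 and 12. The share of all genes at that setting is not given here, so these numbers cannot be set against the shares above. The median log2 ratios were 0.34, 0.42 and 0.64. Plod1, a lysyl hydroxylase of the helix, was higher in all 3, at 30.5 CPM in WT and 98.7, 182 and 127 CPM in the 8w and 16w db/db libraries and HFD. Tll1, a relative of the enzyme that removes the end of procollagens, was lower in all 3, at 19.8 CPM in WT and 4.24, 0.242 and 0.491 CPM. Itga11, part of a fibroblast receptor for fibrillar collagen, was lower as well, at 93.6 CPM in WT and 40.4, 18.9 and 33.7 CPM. Lox, which crosslinks collagen and elastin, stood at 215, 508, 420 and 584 CPM in WT, the 8w and 16w db/db libraries and HFD. Serpinh1, the collagen chaperone of the endoplasmic reticulum, stood at 565, 1060, 881 and 989 CPM, and P4hb, a subunit of the prolyl hydroxylase, at 212, 352, 378 and 377 CPM. Pcolce, which speeds procollagen cutting, stood at 521, 583, 1030 and 707 CPM. Its relative Pcolce2, named after its values were seen, stood at 736 CPM in WT and 427, 57.4 and 190 CPM in the others, and was called lower in db/db 16w and HFD. Ddr2, a tyrosine kinase receptor for fibrillar collagen, was highest in WT, at 722 CPM against 382, 177 and 290 CPM.

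Endothelial cells held mostly the type IV pair, and only the gates of db/db 16w and HFD, which were compared, held more than 74 cells. Col4a1 stood at 696 CPM for db/db 16w and 1659 for HFD, and Col4a2 at 533 and 795 CPM, a log2 ratio of HFD to db/db 16w of 1.25 for the former and 0.58 for the latter. The 74 endothelial cells of db/db 8w gave 1237 CPM of Col4a1, and the 12 of WT held 35 UMIs of it. Col8a1 stood at 21.7 CPM for db/db 16w and 86.0 for HFD, and Col15a1 at 19.8 and 89.5 CPM. Col28a1 was the one described member with a higher level in endothelial than in stromal cells of these libraries, at 82.3 CPM against 8.24 in db/db 16w and 44.7 against 6.02 in HFD. Of 15 members with at least 10 CPM, 9 were at least 2-fold higher in HFD than in db/db 16w and 0 lower, against 11.1% and 3.75% of all genes. Median depth differed between the gates, at 1037 UMIs per endothelial cell for db/db 16w and 4523 for HFD. The stromal marker list, too, stood at 25.5 CPM in the endothelial gate of db/db 16w and at 175 CPM in that of HFD. Of the 9, Col1a2, Col3a1, Col5a2 and the 3 type VI chains stood at 0.913% to 2.21% of the stromal level of HFD, where macrophages held the same 6 genes at 0.979% to 1.29%. For Col4a1 the endothelial level was 53.3% of the stromal one in HFD and 22.4% in db/db 16w, for Col8a1 68.1% and 22.9%.

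**Figure D5:**
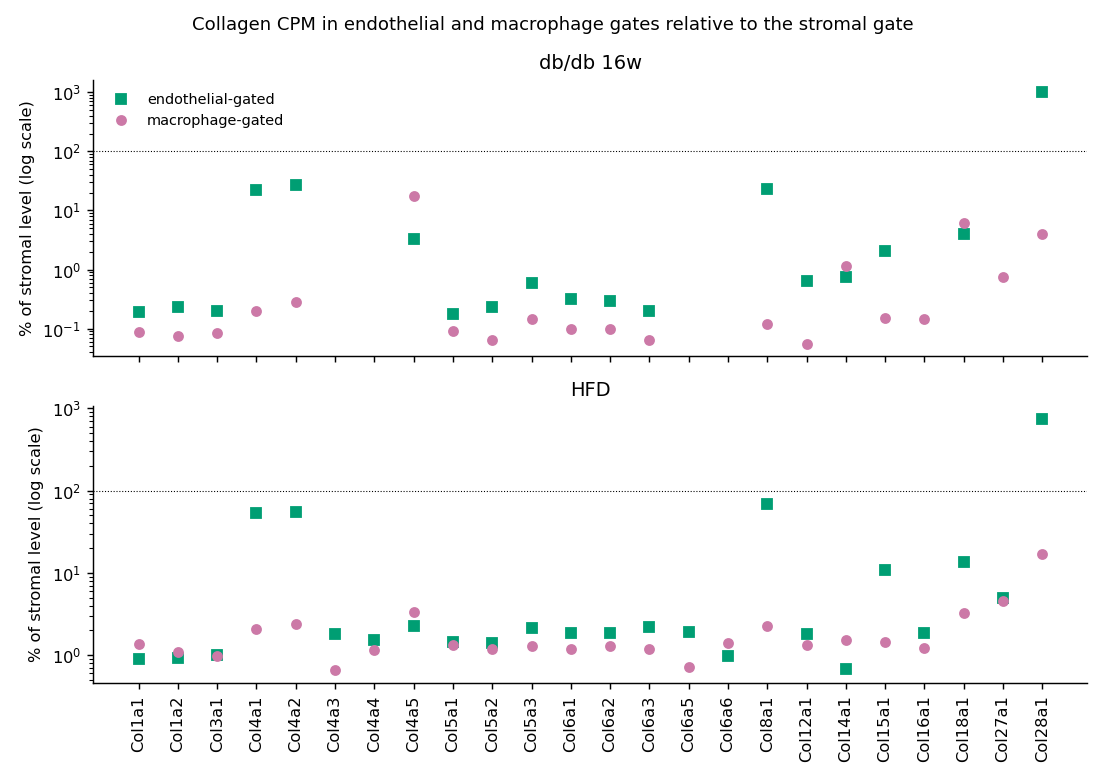
CPM of the described members in endothelial-gated cells (squares) and macrophage-gated cells (circles) as a percentage of the level in stromal-gated cells of the same library, on a log scale, for db/db 16w and HFD. Members with no UMI in a gate, or with fewer than 20 in the stromal gate, are not drawn. Col4a1, Col4a2, Col8a1 and Col28a1 stand out in endothelial cells, and Col18a1 stands above most members in macrophages of db/db 16w.

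Free RNA from broken cells can bring UMIs into any droplet, and its part in these libraries was not tested. The macrophage level was therefore set beside that of T and NK cells, which should lack these genes. The family stood at 740 CPM in WT macrophages, 696 for db/db 8w, 101 for db/db 16w and 639 for HFD. In the T/NK gate, of 15, 93, 56 and 17 cells, it stood at 620, 603, 68.6 and 684 CPM. The log2 ratios of macrophages to T/NK cells were 0.26 in WT, 0.21 for db/db 8w, 0.56 for db/db 16w and -0.10 for HFD, with intervals that included 0 except in db/db 8w, where the lower bound was 0.00087. That ratio turned to -0.20 for db/db 8w when gates were held to a purity of 95%. Barcodes with both macrophage and stromal markers, left out of the gates, numbered 132, 963, 49 and 222 in WT, the 8w and 16w db/db libraries and HFD, and their part in the macrophage level was not tested. The median described member stood at 2.72% of its stromal level in WT macrophages, 1.57% for db/db 8w, 0.109% for db/db 16w and 1.34% for HFD. The db/db 16w macrophages had the least, with a median of 0 collagen UMIs per cell against 4, 3 and 2 in WT, db/db 8w and HFD. Macrophage-gated cells with at least 10 collagen UMIs numbered 81, 204, 7 and 61 in WT, the 8w and 16w db/db libraries and HFD. They were 6.60%, 6.58%, 0.290% and 3.79% of the gate, and the highest counts in a cell were 114, 173, 260 and 492. The study named a macrophage subcluster as collagen-expressing macrophages, and whether these cells belong to it was not tested.

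Col18a1 stood above the percentage of the median described member in macrophages of all 3 libraries of obese mice and below it in WT. It stood at 0.604 CPM in WT, 7.66 for db/db 8w, 31.2 for db/db 16w and 7.07 for HFD, or 1.99%, 4.32%, 6.04% and 3.28% of the stromal level of the same library. In macrophages without any stromal marker UMI it was 3.68% for db/db 8w, 5.76% for db/db 16w and 1.78% for HFD, the last from 16 UMIs. After thinning to 1000 UMIs, 2.62% of db/db 16w macrophages held a Col18a1 UMI, against 0.0860% for Col15a1, which was the more abundant gene in stromal cells. The 46 T/NK cells of that library deep enough for thinning held no Col18a1 UMI. With a floor of 3 cells in place of 0, not the interval used for other shares, this allows up to 6.52%. It thus cannot tell the gates apart. Macrophages were also split, after these values were seen, by whether they held a UMI of both Trem2 and Cd9, genes of lipid-associated macrophages, or of neither. In db/db 16w Col18a1 stood at 35.3 CPM in the 1350 cells with both and at 4.99 CPM in the 329 with neither, from 4 UMIs, and in db/db 8w at 12.6 and 2.62 CPM. In HFD it stood at 7.90 and 4.14 CPM, with an interval of the log2 ratio from -0.49 to 2.85. Over the same split Col3a1 was 16.8 and 19.9 CPM for db/db 16w, 160 and 330 CPM for db/db 8w, and 229 and 237 CPM for HFD, so it was not higher in the cells with both genes. Col4a5 gave 60 UMIs in db/db 16w macrophages, 17.3% of its low stromal level, and 56 of them were in the cells with both genes against 0 in those with neither, a difference whose interval reached below 0. In db/db 8w Col4a5 gave 15 UMIs in the cells with both and 2 in those with neither, a log2 ratio of 2.33 (0.23 to 5.51). In the libraries of obese mice the other members with higher percentages than Col18a1 rested on fewer UMIs. Col27a1 had 37 UMIs in db/db 8w, at 7.84% of the stromal level, and 22 in HFD, at 4.50%, and Col28a1 had 12 in HFD. Cells with both Trem2 and Cd9 were deeper, with medians of 9069 and 2217 UMIs in db/db 16w.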

How the data were processed

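The authors deposited raw UMI counts per gene and barcode for each library, made from 10x Genomics 3′ libraries aligned to mouse mm10 with Cell Ranger 7.1.0 by the study's notes and 6.0.0 by the file header. No further normalization had been applied. UMIs count transcript ends, so levels were not divided by transcript length.

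Barcodes were kept where genes numbered between 250 and 6000, UMIs between 500 and 30000, and mitochondrial transcripts stayed below 15%. The kept cells held 26558173 to 53420105 UMIs per library. A cell entered a lineage with at least 3 UMIs over at least 2 markers and 80% of its lineage-marker UMIs from 1 list. A stromal cell entered the subset with the most detected markers, if at least 2 and more than any other subset. Doublets were not called, but cells with mixed lineage markers were left out by the purity limit. Counts were summed over cells per library and gate and given as CPM. Cells are not replicates, so no test was run. Intervals at 95% were exact Poisson (levels), Clopper-Pearson (shares) and conditional binomial (ratios), and cover counting error only, not mice or preparations. Gates under 50 cells were given as counts or left out, except T/NK cells as a background.

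Members reaching 20 CPM in a stromal, endothelial or macrophage gate were described by value. Pathway genes were named if past 2-fold in all 3 comparisons or the highest of their role. The members, markers and lists were chosen with earlier results of these data known. The barcodes that held both macrophage and stromal markers, the split by Trem2 and Cd9 and the macrophages without stromal UMIs were looked at after the data were seen. Coordinates came from GENCODE M21 (GRCm38) and promoters from RefSeq on GRCm38.p6. Scripts ran in Python 3.11.15 with numpy 2.4.6, scipy 1.17.1, pandas 2.3.3 and matplotlib 3.10.9, and the interval and call code was tested on simulated data.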

Additional observations from a re-analysis of the deposited data

Results flagged for a closer look

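Col4a3 and Col4a4 lay on opposite sides of WT in the stromal cells of db/db 16w and HFD. The log2 ratio of Col4a3 to WT was -4.21 in db/db 16w and 0.78 in HFD, a difference of 4.99. That of Col4a4 was -4.19 and 0.75, a difference of 4.93. With 1 library per group the difference was not tested, and in the preadipocyte subset HFD lay below WT for both genes, at -0.98 and -0.59, so the opposite direction was not seen there.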

How the results depend on the processing

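No paired analysis was possible because each group had 1 library. The log2 ratio of the collagen family to WT in stromal cells kept its direction under the alternatives run on the whole stromal gate. In the 8w and 16w db/db libraries and HFD it was 0.62, 1.03 and 0.63 with no mitochondrial limit, 0.64, 0.98 and 0.75 at a purity of 95%, and 0.65, 1.01 and 0.75 with gates by number of markers. It was 0.66, 1.04 and 0.74 over UMIs of other genes, 0.62, 1.01 and 0.65 relative to the median gene, and 0.34, 0.24 and 0.36 with the subset makeup of WT. The 0.24 for db/db 16w used only the preadipocyte subset and the cells of no clear subset, so it is not like the other values. As a mean over cells the log2 ratio of the family was 0.55, 1.01 and 0.71. With the subset makeup of WT the FACIT class turned to 0.37 for db/db 8w and 0.27 for HFD, and Col14a1 to 0.23 in HFD. With 1 CPM added, pathway genes at least 2-fold higher numbered 7, 7 and 12, with no share over all genes at that setting to set beside them. The ratio of macrophages to T/NK cells was the least stable. At a purity of 95% it was -0.48 in WT, -0.20 for db/db 8w and -1.12 for HFD. By number of markers it was -0.20 for db/db 8w and -0.92 for HFD. A different ratio, of all macrophages to those without stromal UMIs and with no T/NK cells in it, had a log2 of 0.72 in HFD. The endothelial log2 ratio of Col4a1 and Col4a2 together was 0.74, 1.11 and 0.91 under the first 3 alternatives. Thinned to 2000 UMIs, cells with a Col15a1 UMI exceeded WT by 31.5, 63.2 and 56.6 percentage points. The cause of these shifts was not tested. The T/NK gates of 15 to 93 cells, and 12 and 74 endothelial cells in WT and db/db 8w, limit what depth can show there.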

Other observations

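The barcodes left out for holding both macrophage and stromal markers numbered 132 for WT, 963 for db/db 8w, 49 for db/db 16w and 222 for HFD. Collagens were 1.28%, 2.05%, 2.28% and 2.02% of their UMIs, between the macrophage and stromal levels of each library, and their median depth in db/db 8w was 1504 UMIs against 3787 for stromal cells. Mural cells, gated on Rgs5, Kcnj8, Abcc9, Notch3, Myh11, Higd1b and Ndufa4l2, numbered 0 in WT and db/db 8w, 39 for db/db 16w and 20 for HFD. They held 190 and 106 UMIs of Col4a1 and 34 and 12 UMIs of Col18a1 in db/db 16w and HFD.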
